A study of Saccharomyces cerevisiae with 9 samples.

Results

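Transcripts of 55 genes for factors that assemble the large (60S) ribosomal subunit of Saccharomyces cerevisiae were followed through osmotic stress in 3 strains. The genes were taken by their standard names and sorted by role into 15 early nucleolar factors, 25 factors of nucleolar maturation, 8 late nuclear factors and 7 factors of export and cytoplasmic maturation. All 55 were found among the 6868 features of the deposited table, and 53 of them were among the 5645 features with a value on every array. The strains lacked endogenous RPB1, the gene of the largest RNA polymerase II subunit, and carried RPB1 on a plasmid. In wild-type (labelled CTD14) every heptad repeat of the carboxyl-terminal domain, the CTD, was intact. In S2A (CTD2A) and S5A (CTD5A) a block of repeats with alanine in place of serine 2 or serine 5 was followed by wild-type repeats, because replacing all repeats is lethal. Both mutants are therefore partial losses of a phosphorylation site, and the number of repeats differed between the plasmids. All cells grew in rich YPD medium, and each culture was sampled before and 30 min after addition of NaCl to 0.7 M. The comparison asks whether repression of these genes during salt stress depends on either CTD serine.

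Ribosome assembly begins in the nucleolus, where RNA polymerase I transcribes the long rRNA precursor. Early factors, many of them RNA helicases and scaffold proteins, fold the precursor and bring in the first ribosomal proteins. GTPases and the giant ATPase Mdn1 then remodel the particle in the nucleoplasm, and export factors carry it through the nuclear pore to the cytoplasm, where the last factors leave. The genes for these proteins are read by RNA polymerase II, are strongly expressed in growing yeast and belong to the ribosome biogenesis group that yeast lowers in many stresses. Ser5 phosphorylation of the CTD marks polymerase early in transcription, and Ser2 phosphorylation accumulates during elongation.

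Each strain was measured on 3 tiled 2-colour arrays. A gene's value is a log2 ratio, NaCl-treated over unstressed cells of the same strain, so -1 is a level halved after NaCl relative to the other transcripts on that array. A difference between strains in this ratio can come from the level before NaCl or the level after it, and the ratio does not tell which. The paper reports few differences of S2A and S5A from wild-type in unstressed cells, which was not tested here. Array medians lay between -0.00135 and -0.00011, and a change in total mRNA per cell is therefore not visible. Between 156 and 1163 features lacked a value on an array. Arrays of one strain correlated across features at 0.898 to 0.958 in wild-type, 0.922 to 0.944 in S2A and 0.913 to 0.955 in S5A. The standard deviation over the features of one array was 1.07 to 1.22 in wild-type, 1.04 to 1.20 in S2A and 0.886 to 0.916 in S5A. The direction of the ratio was checked on genes known to be induced by salt, and 10 of 10 were called higher in every strain. The gene of the altered subunit, RPO21 (RPB1), read -0.72, -0.39 and -0.77 on the wild-type arrays, -0.96, -0.93 and -0.95 on the S2A arrays, and -1.55, -1.35 and -1.24 on the S5A arrays. The S5A minus wild-type difference of RPO21 was -0.75 ± 0.15 (SE; adjusted p = 0.0113 by limma). The arrays do not read the serine substitutions, so this gene does not check the labels.

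In wild-type cells the 60S assembly genes fell together. limma, with Benjamini-Hochberg adjustment over all features, called 52 of 53 lower after NaCl (adjusted p below 0.05), against 38.3% of all features. Their median log2 ratio was -2.50, a 5.65-fold lower level, and the median of all features was -0.06. A wild-type mean at or below -2 was found for 37 of the 53 genes and for 190 of the 5645 features. At or below -3 there were 12 of these genes among 35 features. The mean over the 3 wild-type arrays of the group's median was -2.46 ± 0.25 (SD, n = 3). In RNA from whole cultures a lower level in every cell and a loss in some of the cells cannot be told apart.

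**Figure D1:**
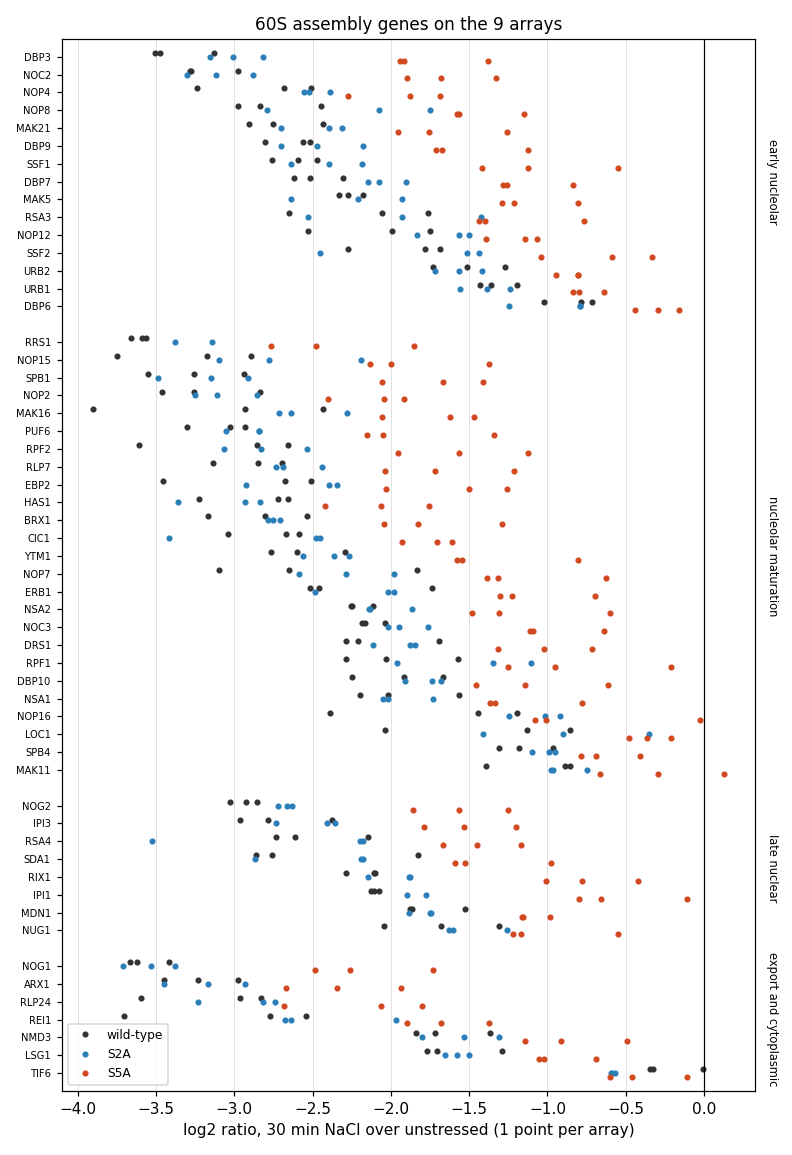
Log2 ratio of NaCl-treated over unstressed cells on the x axis for each of the 55 genes (rows, by stage and by wild-type mean), 1 point per array, with wild-type in black, S2A in blue and S5A in orange. The 3 S5A points lie above all 3 wild-type points for 54 of the 55 genes, and above all 3 S2A points for 48 of the 53 complete genes.

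The lowest wild-type ratio among the complete genes was that of NOG1, a GTPase that leaves the nucleus with the particle, with -3.42, -3.62 and -3.66 (adjusted p = 1.64e-08 by limma). RRS1, which brings 5S rRNA into the particle with Rpf2, read -3.57, -3.59 and -3.66 and lacked a value on 1 S2A array. At the other end stood TIF6, whose product keeps the subunits apart until a late release step. TIF6 read -0.33, -0.01 and -0.35 in wild-type and did not pass the test (adjusted p = 0.0963), although it did without wild-type replicate 2 (adjusted p = 0.0393). It was called lower in S2A, with the closely spaced values -0.57, -0.59 and -0.60, and in S5A with -0.46, -0.60 and -0.11 (adjusted p = 0.012).

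The stage medians lay close together in wild-type. Averaged over the 3 wild-type arrays, the stage median was -2.48 ± 0.16 (SD) for early, -2.49 ± 0.25 for nucleolar, -2.37 ± 0.25 for late and -2.77 ± 0.22 for export factors. The early median lay above the export median by 0.24, 0.36 and 0.26 on the 3 wild-type arrays and by 0.54, 0.50 and 0.42 on the S5A arrays. On the S2A arrays the same gap was -0.43, 0.74 and 0.43, so its sign was not shared by all 9 arrays. The genes within a stage spread more widely than the stage medians. The wild-type means ran from -3.37 to -0.84 among early, from -3.27 to -1.04 among nucleolar, from -2.94 to -1.68 among late and from -3.57 to -0.23 among export factors. Coding length in the RefSeq annotation ran from 600 bases for RLP24 to 14733 for MDN1, and its Spearman's rho with the wild-type mean was 0.085 across the 53 genes, which are not independent replicates.

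In S2A cells the repression was close to that of wild-type. All 53 genes were called lower after NaCl, against 37.1% of all features, with a median of -2.28, or 4.87-fold. The S2A minus wild-type difference was called for 0 of 53 genes at an adjusted p at or below 0.025, as for 0% of all features, with a lowest adjusted p of 0.569 by limma. At an unadjusted p below 0.05 there were 2 of the 53 genes and 479 of the 5645 features. The difference was above 0, that is toward weaker repression, for 44 of 53 genes, with a median of 0.17 beside 0.01 for all features. It ran from -0.35 for TIF6 to 0.61 for NOP16, a pre-60S component named here for its extreme value. The median half-width of the 95% interval was 0.471, the interval included 0 for 51 genes, and it excluded a difference of 1 for 46. All 3 S2A arrays lay above all 3 wild-type arrays for 3 genes, NOG2, DBP7 and NOC3, the last 2 named after their values were seen, against 6.24% of all features. For 1 gene, TIF6, they lay below, but its difference did not pass (adjusted p = 0.569 by limma). The share of all features in that direction was not computed.

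In S5A cells the same genes were still repressed relative to unstressed cells of that strain, but less deeply. limma called 51 of 53 lower after NaCl, against 34.2% of all features, and their median was -1.20, or 2.30-fold. The genes not called were MAK11 (adjusted p = 0.136) and LOC1 (adjusted p = 0.194, named after its value was seen), which encode a WD-repeat protein and an RNA-binding protein that also localises ASH1 mRNA. S5A minus wild-type was called above 0 for 34 of 53 genes and below 0 for none, where 4.13% of all features were called above 0. The difference was positive for 52 of 53 genes, with a median of 1.11 and a range of -0.16 to 1.62, while the median over all features was 0.01. All 3 S5A arrays lay above all 3 wild-type arrays for 52 of the 53 genes, with TIF6 the exception, against 19.1% of all features. Differences of the called genes ran from 0.65 to 1.62. Of the 19 genes not called, 12 had an adjusted p below 0.05.

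The count of 34 rests on which arrays enter, on how they are scaled and on whether the replicate numbers are used. The main fit did not use the numbers. With the replicate number as a block 44 genes were called, beside 13.5% of all features in either direction (7.95% in the main fit). Leaving out S5A replicate 1 gave 8 genes, beside 0.301% of all features. Leaving out S5A replicate 2 or 3 gave 22 or 16, beside 3.45% or 2.73%. Leaving out wild-type replicate 2 or 3 gave 16 or 9, beside 3.44% or 1.49% of all features. S5A replicate 1 held the least negative S5A value for 49 of the 53 genes, and wild-type replicate 2 held the lowest wild-type value for 31. The S5A arrays had the narrowest spread over all features. When all arrays were scaled to one spread 10 genes were called, beside 3.95% of all features, with a median difference of 0.73. Quantile normalization left 3 genes, beside 3.22% of all features, and a median of 0.48. The part of array spread in these differences was not tested beyond these alternatives.

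**Figure D2:**
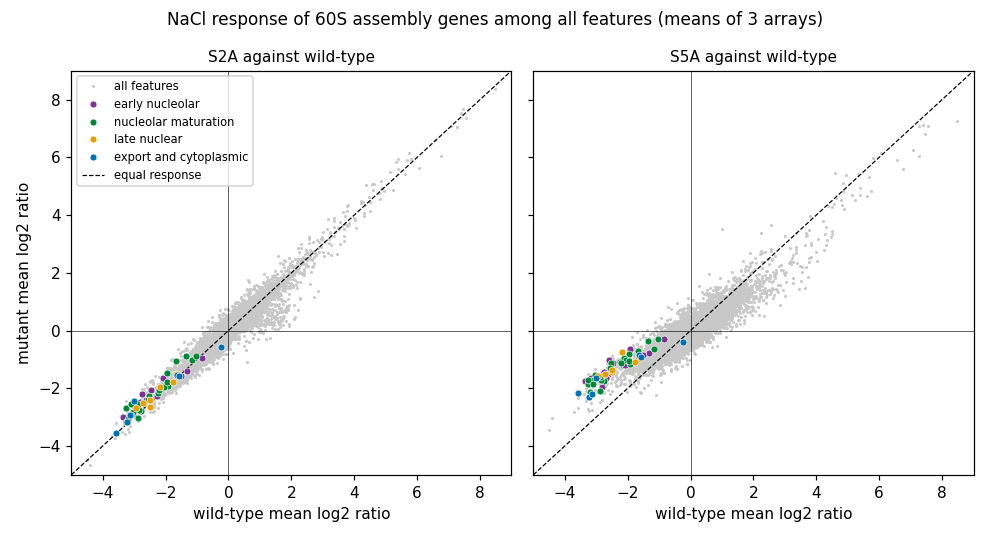
Mean log2 ratio of 3 arrays in wild-type (x axis) against that in S2A (left) or S5A (right) on the y axis, for all 5645 features in grey and the 53 genes coloured by stage, with a dashed line of equal response. The genes follow the line in S2A and lie above it in S5A, except TIF6.

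Across the 53 genes the S5A mean followed the wild-type mean (Pearson's r = 0.910, Spearman's rho = 0.923, across genes), so the order of the genes was largely kept. For the 52 genes called in wild-type, S5A retained a median of 55.04% of the wild-type log2 change. The lowest share was 26.1% (LOC1) and the highest 72.5% (HAS1, an RNA helicase), both named for their extreme values. Over the 2160 features called lower in wild-type the median share was 69.4%. The same share in S2A was 92.6% for the 52 genes and 94.9% for the 2160 features. By stage, the S5A share had medians of 51.9% for early, 53.6% for nucleolar, 55.7% for late and 59.3% for export factors. The median share was not computed for other groups of ribosome production. The group medians in wild-type and S5A were -2.50 and -1.20 for the 53 genes and -2.24 and -1.20 for small-subunit factors. They were -1.67 and -0.85 for other large-subunit factors, and -0.97 and -0.43 for large-subunit proteins. A share below that of all repressed features is therefore not shown to be particular to the 53 genes.

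The S5A arrays were also set against the S2A arrays, which share the plasmid design of mutant repeats followed by wild-type repeats. S5A minus S2A used the same S5A arrays as S5A minus wild-type, so the comparisons are not independent. It was called above 0 for 17 of 53 genes, against 1.51% of all features, with a median of 0.92, and it was positive for 53 of 53. With the replicate number as a block 29 genes were called, beside 5.58% of all features in either direction (3.31% in the main fit). After scaling, 2 genes were called, beside 0.921% of all features, and the median was 0.53. Quantile normalization left 1 call, beside 1.24% of all features, and a median of 0.38, with 51 of 53 positive. All 3 S5A arrays lay above all 3 S2A arrays for 48 of the 53 genes, against 18.7% of all features. The count of 17 went to 0 when S2A replicate 1, S2A replicate 3 or S5A replicate 1 was left out, as did that of all features. The count went to 10 without S2A replicate 2 and to 8 without wild-type replicate 3, beside 2.18% and 1.08% of all features. Without S5A replicates 2 and 3 it went to 4 and 2, beside 0.213% and 0.106%.

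**Figure D3:**
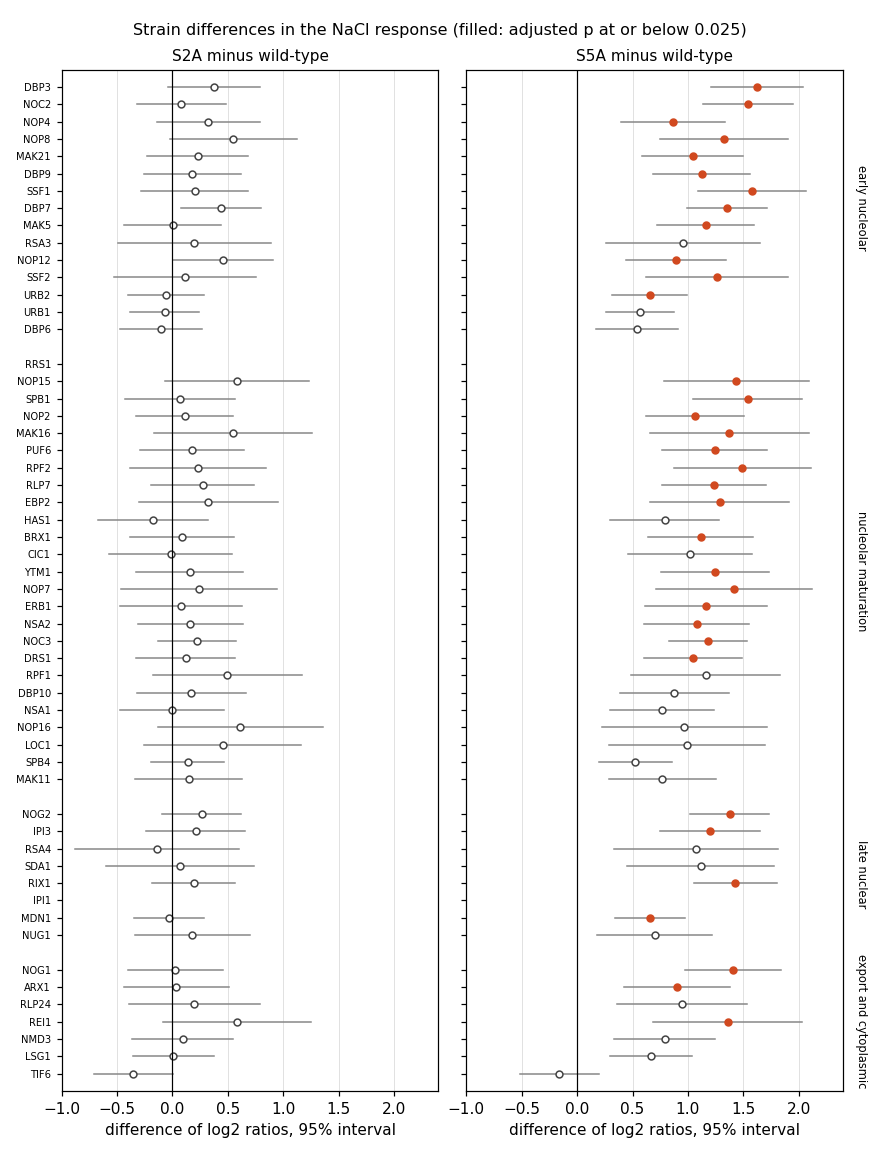
Difference of the log2 ratios on the x axis, S2A minus wild-type (left) and S5A minus wild-type (right), for each of the 53 complete genes, with the 95% interval from limma as a bar. Filled points passed an adjusted p of 0.025, which 34 genes did in S5A and 0 did in S2A.

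Among the 15 early factors 12 were called with weaker repression in S5A, with a median difference of 1.13. The largest difference of all belonged to DBP3, a DEAD-box helicase of early rRNA processing. DBP3 read -3.13, -3.47 and -3.50 in wild-type, -2.82, -3.01 and -3.16 in S2A, and -1.38, -1.92 and -1.94 in S5A. No S5A array reached the level of any wild-type or S2A array, and the S5A minus wild-type difference was 1.62 ± 0.19 (SE; adjusted p = 0.00479 by limma). NOC2, which pairs with Noc1 on early and with Noc3 on later particles, read -2.98, -3.28 and -3.29 in wild-type, -3.30, -2.88 and -3.12 in S2A, and -1.33, -1.68 and -1.90 in S5A. Its difference was 1.54 ± 0.18 (adjusted p = 0.00479). Both calls were kept with any array left out.

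The Brix-domain paralogs SSF1 and SSF2 encode closely related early factors, and cross-hybridization between them was not tested. SSF1 read -2.47, -2.76 and -2.59 in wild-type and -0.55, -1.42 and -1.13 in S5A, a difference of 1.58 ± 0.22 (adjusted p = 0.00555 by limma). SSF2 read -1.78, -2.27 and -1.69 in wild-type and -0.33, -1.04 and -0.59 in S5A, a difference of 1.26 ± 0.29 (adjusted p = 0.0204). The S5A and wild-type arrays did not overlap for either gene. Their S2A values lay within or near the wild-type range, at -2.39, -2.19 and -2.64 for SSF1 and at -2.46, -1.51 and -1.44 for SSF2. The SSF1 call was kept with any array left out. The SSF2 call was lost without S5A replicate 1 (adjusted p = 0.0901), without any other S5A or any wild-type array, and without S2A replicate 2, at adjusted p from 0.027 to 0.0618.

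The Npa1 complex, which joins the earliest pre-60S particles, held the 3 weakest wild-type responses of this stage, those of DBP6, URB1 and URB2. All its members but NOP8 had S5A minus wild-type differences below 1. The helicase gene DBP6 read -0.78, -0.72 and -1.02 in wild-type, -1.25, -0.80 and -0.79 in S2A, and -0.16, -0.30 and -0.44 in S5A. The S5A arrays lay above the others, but the difference of 0.54 ± 0.17 did not pass (adjusted p = 0.0546 by limma). The scaffold gene URB1 read -1.36, -1.19 and -1.43 in wild-type and -0.64, -0.84 and -0.80 in S5A, a difference of 0.57 ± 0.14 that missed the threshold (adjusted p = 0.0266). It passed with the replicate number as a block (adjusted p = 0.0228) and without S2A replicate 1 (adjusted p = 0.0248). URB2, the partner of Urb1, read -1.73, -1.27 and -1.52 in wild-type and -0.81, -0.81 and -0.95 in S5A and passed with 0.65 ± 0.15 (adjusted p = 0.0223). This call held with wild-type replicate 2 left out and was lost without each of the other 8 arrays, at adjusted p from 0.0274 to 0.0835. NOP8, an RNA-binding member, was the exception in size, with -2.45, -2.98 and -2.84 in wild-type and -1.15, -1.58 and -1.56 in S5A. Its difference was 1.32 ± 0.26 (adjusted p = 0.0116). That call was lost without wild-type replicate 2 or 3 or any S5A array, at adjusted p from 0.0277 to 0.0551. RSA3, a small member of the complex, varied between arrays in wild-type (-2.06, -2.65 and -1.76) and S2A (-2.53, -1.93 and -1.43), and its difference of 0.95 ± 0.31 did not pass (adjusted p = 0.067).

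Of the 24 complete factors of nucleolar maturation, 15 were called with weaker repression in S5A, with a median difference of 1.14. SPB1, a methyltransferase of 25S rRNA, read -2.94, -3.55 and -3.26 in wild-type, -3.49, -2.91 and -3.15 in S2A, and -1.42, -2.06 and -1.67 in S5A. The S5A arrays stood clear of the other 6, and the difference from wild-type was 1.54 ± 0.22 (adjusted p = 0.0059 by limma; 0.0278 without S5A replicate 1). NOP15, which binds the second internal spacer of the rRNA precursor, had the lowest wild-type mean of the complete genes of this stage, with -3.18, -3.75 and -2.89. It read -1.37, -2.13 and -2.001 in S5A, a difference of 1.44 ± 0.29 (adjusted p = 0.0134), and its call was lost without wild-type replicate 2 or 3 or S5A replicate 1 or 3, at adjusted p from 0.0292 to 0.0589.

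RPF2 and RRS1 encode the pair that brings 5S rRNA to the particle. RPF2 read -2.66, -3.61 and -2.85 in wild-type, -3.06, -2.83 and -2.54 in S2A, and -1.12, -1.95 and -1.57 in S5A. The S5A arrays lay above all others, with a difference of 1.49 ± 0.28 (adjusted p = 0.00969 by limma). Its adjusted p was 0.0309 when wild-type replicate 3 was left out, and 0.0443 and 0.0314 when S5A replicates 1 and 3 were. RRS1 had -3.38 and -3.14 on its 2 S2A arrays and -1.85, -2.77 and -2.48 on the S5A arrays, again above every wild-type value. In the fit that asked for at least 2 arrays per strain, its difference was 1.24 ± 0.23 (adjusted p = 0.0161).

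The 3 subunits of the PeBoW complex, NOP7, ERB1 and YTM1, gave differences close to each other. NOP7 read -1.83, -2.65 and -3.10 in wild-type and -0.62, -1.38 and -1.32 in S5A, a difference of 1.42 ± 0.32 (adjusted p = 0.0188 by limma). ERB1 read -1.74, -2.52 and -2.46 in wild-type and -0.70, -1.30 and -1.23 in S5A, a difference of 1.16 ± 0.25 (adjusted p = 0.0161). In both strains replicate 1 was the least repressed array for these genes. YTM1, whose product Mdn1 strips from the particle, read -2.29, -2.60 and -2.76 in wild-type and -0.80, -1.55 and -1.58 in S5A, a difference of 1.24 ± 0.22 (adjusted p = 0.00832). All 3 calls were lost without wild-type replicate 2 or 3 or S5A replicate 1, at adjusted p from 0.0251 to 0.079. Those of NOP7 and ERB1 were also lost without S5A replicate 2 or 3, and that of NOP7 without S2A replicate 2, at adjusted p from 0.0291 to 0.0396.

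Grouped by function across the early and nucleolar stages, the calls in S5A minus wild-type were spread over most groups. The 3 genes of the Noc complexes, which accompany the particle from nucleolus to nucleoplasm, were all called, with a median difference of 1.18. So were both rRNA methyltransferase genes, SPB1 and NOP2, whose wild-type means of -3.25 and -3.18 were among the lowest of the stage. Of the 8 RNA helicase genes outside the Npa1 complex 5 were called. Their median was -2.37 in wild-type and -1.11 in S5A. Of the 3 genes of the Nsa1 module 1 was called, with a median difference of 1.16.

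The smallest wild-type responses of this stage were those of MAK11 and of the helicase gene SPB4. MAK11 read -0.85, -1.39 and -0.89 in wild-type, -0.75, -0.96 and -0.98 in S2A, and 0.13, -0.67 and -0.30 in S5A. The value on S5A replicate 1 was the only one above 0 among the 53 genes on any array. The difference of 0.77 ± 0.22 did not pass (adjusted p = 0.0419 by limma), but it did with the replicate number as a block (adjusted p = 0.0134). SPB4 read -1.31, -0.97 and -1.18 in wild-type and -0.41, -0.78 and -0.69 in S5A, with a difference of 0.52 ± 0.15 (adjusted p = 0.0423). The groups did not overlap, and the difference did not pass the test.

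Among the 7 complete late nuclear factors 4 were called with weaker repression in S5A, with a median difference of 1.12. RIX1, a subunit of the Rix1 complex that prepares the particle for export, read -2.11, -2.10 and -2.29 in wild-type, -1.89, -1.88 and -2.15 in S2A, and -0.42, -0.78 and -1.01 in S5A. Its difference was 1.43 ± 0.17 (adjusted p = 0.005 by limma), and it was one of 3 genes, with DBP7 and NOC3, called under all 18 alternatives. IPI1 and IPI3 encode the other subunits of the complex. IPI1, without a value on 1 S2A array, read -2.13, -2.08 and -2.11 in wild-type, -1.78 and -1.90 in S2A, and -0.11, -0.66 and -0.80 in S5A. In the fit with at least 2 arrays per strain its difference was 1.58 ± 0.19 (adjusted p = 0.00995). IPI3 read -2.96, -2.38 and -2.78 in wild-type and -1.20, -1.53 and -1.79 in S5A, a difference of 1.20 ± 0.20 (adjusted p = 0.00774; 0.0321 without wild-type replicate 3 and 0.0346 without S5A replicate 1).

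The nuclear GTPase genes NOG2 and NUG1 lay at opposite ends of the late stage. NOG2, whose product sits on the particle before the export adaptor Nmd3, read -2.85, -3.02 and -2.93 in wild-type, -2.66, -2.72 and -2.63 in S2A, and -1.25, -1.86 and -1.57 in S5A. The 3 strains did not overlap with each other, and the S5A minus wild-type difference was 1.38 ± 0.16 (adjusted p = 0.00479 by limma), kept with any array left out. The S2A minus wild-type difference of NOG2, 0.26 ± 0.16, did not pass (adjusted p = 0.619). NUG1 read -1.31, -1.68 and -2.05 in wild-type, -1.26, -1.60 and -1.63 in S2A, and -0.55, -1.22 and -1.17 in S5A. Its difference of 0.70 ± 0.23 did not pass (adjusted p = 0.0706), and it passed with the replicate number as a block (adjusted p = 0.0125).

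Export and cytoplasmic factors had the fewest calls, 3 of 7, and a median difference of 0.90. The stage as sorted here includes 3 shuttling factors, NOG1, RLP24 and TIF6, of which 1 was called. Of the 2 export factors 1 was called, and of the 2 cytoplasmic factors 1. The low count of the stage therefore rests in part on this sorting. NOG1 read -3.71, -3.38 and -3.53 in S2A and -1.73, -2.48 and -2.26 in S5A, and its S5A minus wild-type difference was 1.41 ± 0.19 (adjusted p = 0.00555 by limma). This call was kept with any array left out. ARX1, an export factor bound at the exit of the polypeptide tunnel, read -3.23, -2.98 and -3.45 in wild-type, -3.17, -2.93 and -3.45 in S2A, and -1.94, -2.34 and -2.67 in S5A. It had the most negative S5A mean of the 53 genes, -2.32. Its difference of 0.90 ± 0.22 passed narrowly (adjusted p = 0.0233) and was lost without any single one of the 9 arrays, at adjusted p from 0.0259 to 0.0926. After quantile normalization it was -0.12 (adjusted p = 0.682). TIF6 was the only gene with a negative difference, -0.16 ± 0.16 (adjusted p = 0.527), and its wild-type and S5A arrays overlapped. The TIF6 difference was -0.052 when wild-type replicate 2 was left out, and -0.056 and -0.30 when S5A replicates 2 and 3 were. The other 4 export genes, which include the Crm1 adaptor gene NMD3 and the cytoplasmic factor genes REI1 and LSG1, had differences from 0.66 to 1.36.

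**Figure D4:**
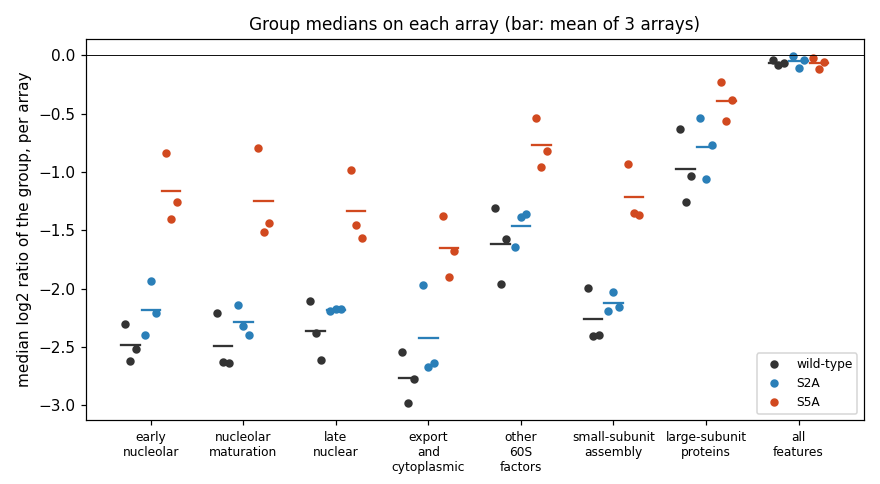
Median log2 ratio of each gene group on the y axis, 1 point per array and a bar for the mean of the 3 arrays, for the 4 stages, 3 comparison groups and all features. Stage means lie between -2.77 and -2.37 in wild-type and between -1.65 and -1.16 in S5A, while all features stay near 0.

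The pattern was set beside other genes of ribosome production chosen by symbol. Assembly factors of the small subunit had a median of -2.24 in wild-type and -1.20 in S5A. Of 56 such genes, 38 were called with weaker repression in S5A, with a median difference of 1.04, beside 34 of 53 and 1.11 for the 60S factors. Other 60S factors outside the 55 genes had a median of -1.67 in wild-type and -0.85 in S5A, and 11 of 31 were called in S5A minus wild-type, with a median difference of 0.84. The 75 genes of large-subunit ribosomal proteins had a shallower response. Many of these are A and B copies of one protein gene, and cross-hybridization between copies was not tested. The medians of the 75 genes were -0.97 in wild-type and -0.43 in S5A, and 2 of 75 were called, with a median difference of 0.58. That count is 2.67%, where 4.13% of all features were called above 0. The difference was nevertheless positive for 75 of 75, as for 56 of 56 small-subunit factors and 28 of 31 other 60S factors. It was positive for 2884 of the 5645 features. These comparisons are of counts and medians, and no test of one group against another was made. The median differences were not set relative to the wild-type medians, which differ between the groups. A smaller difference therefore does not show that a smaller share of the wild-type response was lost.

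In the RefSeq gene order 5 of the 55 genes sit directly beside a gene of the list of small-subunit assembly factors used here. NSA2 and LCP5 are transcribed away from each other, and their wild-type means were -2.21 and -2.17 and their S5A means -1.13 and -0.97. The other pairs, DBP8 with NMD3, UTP9 with RIX1, RSA3 with UTP13 and NOG2 with ESF2, run in the same direction. No 2 of the 55 genes were neighbours. The 98 other neighbouring positions with a value, where a gene between 2 of the 55 counts at both, had a median wild-type ratio of -0.16. They include genes of ribosome production outside the lists used here, such as RPS15 beside NOP12, with a wild-type mean of -1.63.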

How the data were processed

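The authors hybridised salt-treated and unstressed cDNA of one strain to each tiled NimbleGen array, and deposited 1 normalized log2 ratio per feature and array. Salt-treated cDNA carried the same dye on all 9 arrays. A dye effect common to all strains therefore remains in each response and drops out of strain differences. The aligner or probe summary and the genome build are not given in the sources used here. The table held 9 array columns, all matched to samples, and no columns of the authors' comparisons.

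limma 3.58.1 under R 4.3.3 fitted one mean per strain to the 5645 features with values on all 9 arrays (lmFit and eBayes), and p-values were adjusted over these features by Benjamini-Hochberg. Calls used an adjusted p below 0.05 for the response and at or below 0.025 for strain differences. The steps were tested on simulated data. The number of arrays limits the precision. Replicates are numbered in the labels, and nothing read here says that each came from its own culture, so p-values measure the spread between arrays, which may be technical. Deviations of same-numbered arrays from their strain means correlated at 0.149, 0.388 and 0.292 between wild-type and S2A. They correlated at 0.231, 0.177 and 0.166 between wild-type and S5A, and at 0.129, 0.121 and 0.062 between S2A and S5A. Arrays of different numbers correlated at -0.318 to 0.102. Deviations from a mean of 3 arrays sum to 0, so these values and those of same-numbered arrays are not independent. The numbers were taken to pair the strains, because the study's legend calls all 3 paired and each number correlated with wild-type in both mutants. The main fit left this pairing out, because the methods name no block. Its calls, SEs and adjusted p-values therefore ignore the pairing, and the fit with a replicate block is an alternative.

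Alternative settings centred each array on its median, normalized by quantiles, scaled the arrays to one median absolute value, asked for at least 2 arrays per strain (6254 features), fitted only the arrays compared, added a replicate block, used robust eBayes or array weights, replaced the adjustment by Storey's q-value (lambda 0.5), or left out each array. Genes and lists were chosen with earlier results of these data known. Genes named are, per stage, the 2 lowest and the 1 highest in wild-type, the 8 largest called and the 5 smallest S5A differences, genes not called in wild-type, those lacking values, and the Npa1, PeBoW, Rix1 and SSF genes. Others are named after their values were seen.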

Additional observations from a re-analysis of the deposited data

Results flagged for a closer look

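A test of the difference itself set the NaCl response of S5A apart from that of wild-type for 34 of 53 60S assembly genes, where 4.13% of all features were called in this direction, and from that of S2A for 17, where 1.51% were. Of the genes named by rule, 17 passed limma's test of S5A minus wild-type, each with all 3 S5A arrays above all 3 wild-type arrays. Genes chosen for the largest called differences were among them, and their passing was fixed by that choice. The share of all features with such a separation, 19.1%, is over unselected features, so it is no comparison for these 17 genes. The differences in log2 ratio among early factors were 1.62 for DBP3, 1.58 for SSF1, 1.54 for NOC2, 1.32 for NOP8, 1.26 for SSF2 and 0.65 for URB2. Among factors of nucleolar maturation they were 1.54 for SPB1, 1.49 for RPF2, 1.44 for NOP15, 1.42 for NOP7, 1.24 for YTM1 and 1.16 for ERB1. Among late nuclear factors they were 1.43 for RIX1, 1.38 for NOG2 and 1.20 for IPI3, and among export factors 1.41 for NOG1 and 0.90 for ARX1.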

How the results depend on the processing

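The number of 60S assembly genes called in S5A minus wild-type, 34 of 53, was 3 after quantile normalization, 10 after scaling to one spread, and 8 to 36 with 1 array left out. The share of all features called in either direction, 7.95%, was 3.22%, 3.95% and 0.301% to 8.15% in the same order. The count in S5A minus S2A, 17, was 1 after quantile normalization, 2 after scaling, 11 with at least 2 arrays per strain, 6 with only the arrays compared, 26 with array weights, 31 with Storey's q-value, and 0 to 22 with 1 array left out. The matching share of all features, 3.31%, was 1.24%, 0.921%, 1.41%, 1.08%, 7.49%, 7.33% and 0% to 4.87%. With the replicate number as a block it was 29, and 44 genes were called in S5A minus wild-type. Among the genes named by rule the block changed only the calls of URB1, MAK11 and NUG1. The median S5A minus wild-type difference, 1.11, was 0.48 after quantile normalization and 0.73 after scaling, and 0.94 to 1.23 with 1 array left out. The median S2A minus wild-type difference, 0.17, was 0.045 after quantile normalization and 0.066 (without wild-type replicate 2) to 0.27 (without wild-type replicate 1) with 1 array left out, and 0 genes were called under every alternative. Among the genes named by rule 1 difference from wild-type changed sign, that of ARX1, to -0.12 after quantile normalization. Over all 53 genes, quantile normalization left 48 positive in S5A minus wild-type and 34 in S2A minus wild-type. Of the results of single named genes, 762 kept direction and call, 87 lost and 14 gained a call. DBP3, NOC2, NOG2 and SSF1 lost their call only under quantile normalization, and NOG1 under quantile normalization and scaling. The cause of these changes was not tested. With 3 arrays per strain, single-gene differences below about 1 were often short of the threshold, and the depth of the arrays was not used.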

Other observations

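The following genes of the other 60S lists were named after their values were seen. Among the 31 other 60S factors REH1, the paralog of the cytoplasmic factor gene REI1, was the 1 gene called higher after NaCl in wild-type, with a mean log2 ratio of 0.63. The exportin gene CRM1 had a mean of 0.10 in wild-type and -0.44 in S5A, and its S5A minus wild-type difference of -0.54 ± 0.14 did not pass (adjusted p = 0.0315 by limma). In the same list BUD20, an export factor gene, fell to -2.72 in wild-type and -1.38 in S5A, a difference of 1.34 ± 0.25 (adjusted p = 0.0094). Among genes of large-subunit proteins RPL22A had a mean of -1.12 in wild-type and 0.07 in S5A, and its difference of 1.19 ± 0.24 passed (adjusted p = 0.0125). Whether these calls hold with an array left out was not tested, nor was cross-hybridization between RPL22A and its paralog.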
